A study of Mus musculus with 4 samples.

Results

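The genes described here are 36 genes of nuclear factor-κB (NF-κB) and tumour necrosis factor (TNF) signalling. They were chosen by name and by role, with earlier results of these data known, out of 19316 genes that the chip's table names. They comprised the NF-κB subunits, the inhibitory IκB proteins, the IκB kinases and the NF-κB-inducing kinase NIK, the TNF receptor-associated factors (TRAFs) with their partners, the feedback inhibitors A20 and ABIN-1, TNF superfamily ligands and receptors, and 3 target genes. A named probe was present for 32 of the 36, with 1 probe for each, and Nfkb1, Chuk, Traf3 and Ripk1 were not analysed here. The cells were E0771, a breast carcinoma line of the mouse with which the study modelled triple-negative breast cancer, and they were exposed to recombinant human IL-26 at 30 ng/ml or to medium alone (vehicle) for 6 or 24 h. Mice have no IL-26 gene of their own, so the cytokine came only from the medium. The 4 groups, IL-26 at 24 h, vehicle at 24 h, IL-26 at 6 h and vehicle at 6 h, had 1 array each, hybridised with Cy5-labelled RNA in a single colour. All cells were of the same line and no group received another agent. A difference between any pair of arrays therefore has no replicate check, so few arrays limit the precision throughout, and whether they came from separate cultures is not stated.

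NF-κB transcription factors are dimers of Rel-family subunits that IκB proteins hold in the cytoplasm. Ligands of the TNF superfamily bind their receptors, which recruit TRAFs and cIAP ubiquitin ligases and activate the IκB kinase complex, so that IκB is degraded and the dimers enter the nucleus. A second branch runs through NIK and the processing of the Nfkb2 product p100, the partner of RelB. Many of the inhibitors and adaptors, among them IκBα, A20, cIAP2 and TRAF1, are themselves known NF-κB target genes, and in carcinoma cells the pathway is best known for its part in survival and inflammatory gene expression.

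The κB consensus, the sequence that NF-κB dimers bind, was looked for in the 250 bases before the start of each gene, once 20 of the 32 genes were known to be higher at 24 h than at 6 h. It begins with GGG and a purine and, after any pair of bases, ends with a pair of pyrimidines and CC; both strands were read. A window was at hand for 26 of the 32 genes, and 8 of them (30.8%) held a match, against 2225 of 27025 (8.23%) of all mouse genes with a window. Of the 20 genes that were higher at 24 h, 15 had a window and 6 of these (40%) held a match. No match was found for the 3 genes that were lower, and 2 of the 8 remaining genes with a window, Rel and Tnfaip3, held 1 or more. The 32 genes were chosen from this pathway and include known targets. Their share beside that of all genes is therefore no measure of the change with time. The 120 bases before the start are shown for the 6 higher genes with a match, because these carry the places found. Sequences and coordinates are RefSeq's on the build GRCm38.p6, each reads 5′ to 3′ in the gene's own direction, and capitals mark the matches on either strand.
Nfkb2 (chr19:46304617-46304736, plus strand): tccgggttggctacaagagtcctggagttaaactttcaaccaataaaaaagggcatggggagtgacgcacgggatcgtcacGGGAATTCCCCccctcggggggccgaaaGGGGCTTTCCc
Nfkbia (chr12:55492648-55492767, minus strand): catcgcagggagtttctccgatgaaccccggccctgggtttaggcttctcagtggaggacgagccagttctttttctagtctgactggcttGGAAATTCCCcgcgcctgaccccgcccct
Nfkbie (chr17:45555580-45555699, plus strand): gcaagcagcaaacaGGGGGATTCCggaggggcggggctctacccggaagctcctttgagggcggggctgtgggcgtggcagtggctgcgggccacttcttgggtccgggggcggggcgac
Tnip1 (chr11:54962941-54963060, minus strand): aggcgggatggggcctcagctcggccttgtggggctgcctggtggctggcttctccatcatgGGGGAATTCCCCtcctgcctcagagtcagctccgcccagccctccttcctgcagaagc
Tnfrsf9 (chr4:150927879-150927998, plus strand): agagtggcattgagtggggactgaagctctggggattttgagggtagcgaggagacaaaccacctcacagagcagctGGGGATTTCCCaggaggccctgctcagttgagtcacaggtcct
Tnfaip2 (chr12:111442541-111442660, plus strand): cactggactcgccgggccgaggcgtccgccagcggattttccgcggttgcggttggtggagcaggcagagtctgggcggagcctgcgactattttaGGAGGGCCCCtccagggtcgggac
Nfkb2 had matches at 3 of its annotated starts, and the window shown, with 2 places, is that of the first; the window shown for Tnfrsf9 is that of the second of its starts. Places that overlap are joined, as in Nfkb2, Tnip1 and Tnfrsf9, where the sequence matched on both strands. The window of Traf1, the gene with the largest difference between the times among the 32, held no match. A match describes letters in a window and was not tested for binding. Relb, Nfkbiz, Ikbkb, Tnfsf9, Cd40 and Vcam1 had no window.

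Values below are spot median intensities in the Cy5 channel, and differences are on the log2 scale after quantile normalisation, following a background correction based on the blank spots (offset 50). The offset draws the differences of dim genes towards 0. The median gene spot was between 78.0 and 84.4 on the 4 arrays, and a gene counted as detected where its spot exceeded the blank spots' mean by more than 2 SD, a limit between 51.8 and 58.1. All 32 genes were detected on all 4 arrays. The limit is low, since 32.3% to 52.1% of the negative control spots also lay above it. Tnfsf10 exceeded the 95th percentile of the negative controls on 3 arrays and the other 31 genes on all 4. Of 7 epithelial markers, Krt8 had intensities between 1436 and 1838 while Epcam, Cdh1, Krt18, Krt19, Krt5 and Krt14 lay near the limit, and of 6 mesenchymal markers Vim (15519 to 19168), Sparc and Col3a1 were above 2 times the limit throughout, with Cdh2 and Col1a1 near it and Fn1 detected on 3 arrays. Sparc fell by 1.22 with time. Of 9 leukocyte markers, 8 had a named probe and 4 were detected on all 4 arrays. Itgam and Nkg7 were below the limit on every array, Ptprc had 55.2 to 60.6, and Cd68 and Lyz2 were the only leukocyte markers above 2 times the limit throughout.

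The comparison of 24 h with 6 h asks how these genes differed with time in culture, whichever treatment was given. Most of the 32 genes were higher at 24 h. Because they were chosen with earlier results of these data known, the shares of all genes given beside them are a description and no test. The effect of time averaged over both treatments, fitted with limma to all 4 arrays, was past a Benjamini-Hochberg adjusted p of 0.05 for 23 of the 32 genes, with 20 higher and 3 lower. Over all 18372 genes tested, 14.5% were higher and 14.4% lower at that threshold, 2660 and 2639 genes, or 3865 and 2443 with the arrays scaled to their medians instead. The median difference was 0.53 for the 32 genes and -0.00 for all genes. Among 66 further pathway genes described below, 18 (27.3%) were higher, with a median of 0.04. Each of the 20 was higher at 24 h both with IL-26 and with vehicle, and each of the 3 was lower in both. At least a 1.5-fold higher value was seen for 13 genes with IL-26, where 2.87% of all genes reached it, and for 16 with vehicle, where 2.6% did. At least 2-fold was reached by 5 genes with IL-26 (0.8% of all genes) and by 8 with vehicle (0.816%). A 1.5-fold lower value was seen for 0 genes with IL-26, where 2.24% of all genes had it, and with vehicle for Tnfrsf12a alone, where 2% had it.

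**Figure D1:**
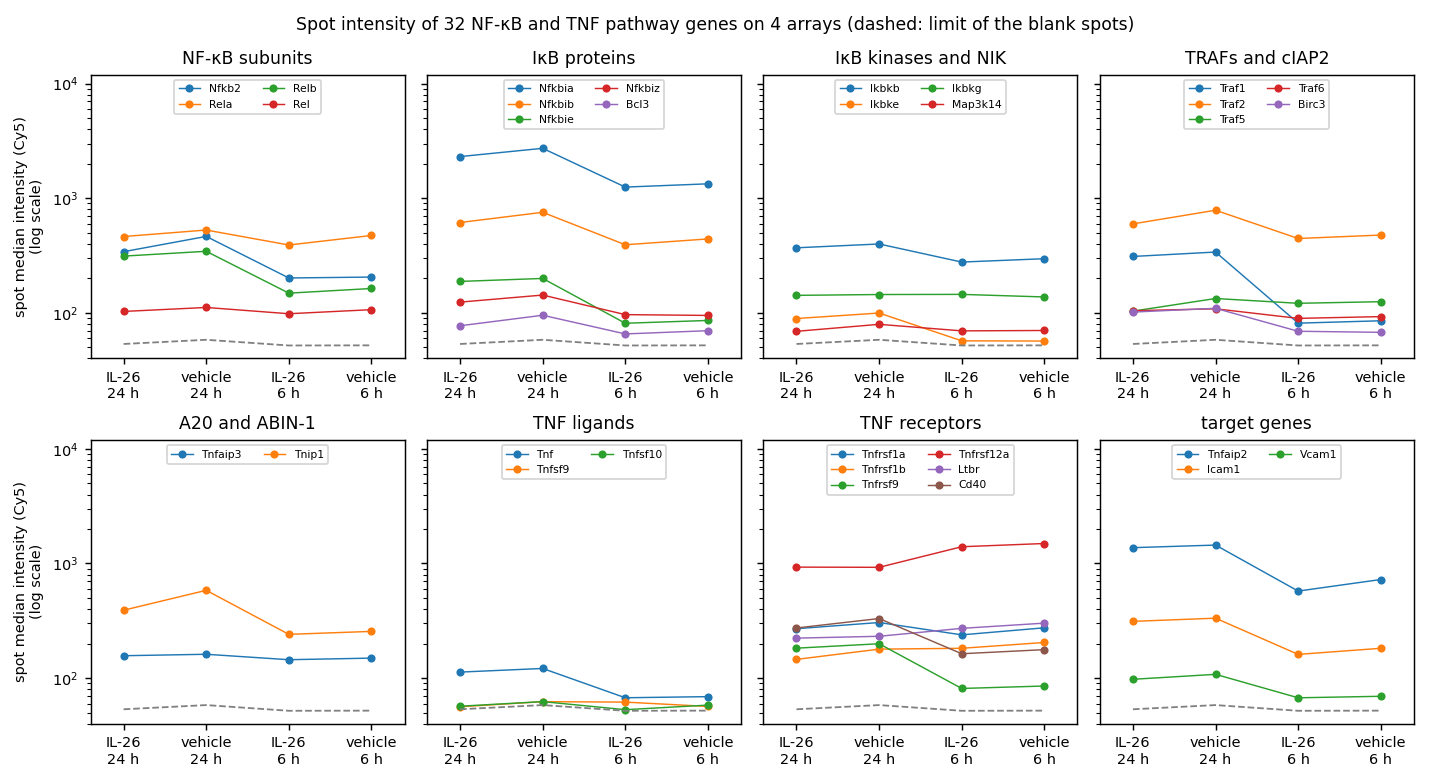
Spot median intensity in the Cy5 channel (log scale) of the 32 genes on the 4 arrays, 1 point for each array, in panels by role, with the limit set by the blank spots dashed. Traf1, Nfkbie, Tnfrsf9 and Relb stand clearly higher on both 24 h arrays, and Tnfrsf12a stands lower on them.

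Among the NF-κB subunits, those of the NIK branch were higher at 24 h. Nfkb2, which encodes p100 and p52, had intensities of 341 with IL-26 and 464 with vehicle at 24 h, against 201 with IL-26 and 205 with vehicle at 6 h, so that both 24 h arrays were above both 6 h arrays. Its averaged difference was 0.99 ± 0.10 (SE from limma, 2 arrays at each time, adjusted p = 2.79e-13), a 1.99-fold higher value. For Relb the intensities were 312 with IL-26 and 344 with vehicle at 24 h, against 148 with IL-26 and 163 with vehicle at 6 h. RelB thus differed by 1.09 ± 0.09 (adjusted p = 1.16e-16), or 2.13-fold, and nearly equally with IL-26 (1.09) and vehicle (1.10). The canonical subunits with a named probe, Rela and Rel, did not pass, and Nfkb1 was not analysed. Rela, the p65 subunit, had a difference of 0.23 ± 0.10 (adjusted p = 0.0829), which passed with the arrays scaled to their medians (0.25, adjusted p = 0.0460), and Rel had 0.06. In Rela the IL-26 array at 24 h (463) was below the vehicle array at 6 h (473).

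All 5 IκB proteins rose. Nfkbia encodes IκBα, the inhibitor that is degraded first after a stimulus, and it had 2308 with IL-26 and 2724 with vehicle at 24 h, against 1250 with IL-26 and 1335 with vehicle at 6 h. The difference was 1.05 ± 0.11 (adjusted p = 5.36e-12), or 2.07-fold. The surroundings of this spot were bright, with a local background of 1994 and 2305 on the IL-26 and vehicle arrays at 24 h, and 775 and 1481 on the IL-26 and vehicle arrays at 6 h, the last above the spot itself. With the local background subtracted, the difference of Nfkbia with time was -0.35 with IL-26 and 3.08 with vehicle. Nfkbib, for IκBβ, had 614 with IL-26 and 753 with vehicle at 24 h, against 392 with IL-26 and 441 with vehicle at 6 h, a difference of 0.74 ± 0.11 (adjusted p = 4.77e-08). Nfkbie, for IκBε, was the highest of the group in its difference, 1.23 ± 0.07 (adjusted p = 3.15e-23). It had 188 with IL-26 and 199 with vehicle at 24 h, against 81.0 with IL-26 and 85.7 with vehicle at 6 h, with no overlap between the times. The nuclear members Nfkbiz and Bcl3, which act with p50 and p52 dimers on chromatin, rose by 0.48 and 0.33.

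Of the kinases, Ikbke rose, and its 6 h values lay near the limit of detection. This gene encodes IKKε, a kinase related to the IκB kinases, and had 89.1 with IL-26 and 99.5 with vehicle at 24 h, against 56.9 with IL-26 and 56.7 with vehicle at 6 h. The averaged difference was 0.71 ± 0.04 (adjusted p = 5.61e-22). Its size depends on the processing. It was 1.63-fold after correction by the blank spots, while that from the intensities which the authors had background-subtracted and scaled was 6.23-fold, and that with the local background subtracted was 1.13-fold. Ikbkb, the catalytic subunit IKKβ, rose by 0.44 (adjusted p = 2.19e-04). Ikbkg, the scaffold NEMO, and Map3k14, which encodes NIK itself, differed by 0.01 and 0.05 and did not pass.

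Traf1 had the largest difference of the 32 genes. This adaptor, which binds TRAF2 and cIAPs, had intensities of 310 with IL-26 and 339 with vehicle at 24 h, against 81.2 with IL-26 and 85.2 with vehicle at 6 h. The difference was 1.99 ± 0.08 (adjusted p = 1.6e-31), a 3.99-fold higher value at 24 h, against 8.77-fold in the authors' values and 2.10-fold with the local background subtracted. The differences within IL-26 and within vehicle were nearly equal. Birc3, the ubiquitin ligase cIAP2, had 101 with IL-26 and 109 with vehicle at 24 h, against 69.0 with IL-26 and 67.5 with vehicle at 6 h, a difference of 0.62 ± 0.05 (adjusted p = 1.21e-15). Traf2, the adaptor that brings cIAPs to TNF receptors, had 597 with IL-26 and 785 with vehicle at 24 h, against 445 with IL-26 and 477 with vehicle at 6 h. It rose by 0.61 ± 0.11 (adjusted p = 5.61e-06), with a smaller difference with IL-26 (0.44) than with vehicle (0.78). Traf6, which also serves Toll-like and IL-1 receptors, rose by 0.22, and Traf5 (-0.08) did not pass.

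The feedback inhibitors did not go together. Tnip1 encodes ABIN-1, a ubiquitin-binding partner of A20, and had 391 with IL-26 and 583 with vehicle at 24 h, against 241 with IL-26 and 256 with vehicle at 6 h. It rose by 0.96 ± 0.10 (adjusted p = 8.09e-12). Tnfaip3, the gene of A20 itself, was between 145 and 161 on all 4 arrays, with a difference of 0.10 ± 0.08 (adjusted p = 0.355).

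**Figure D2:**
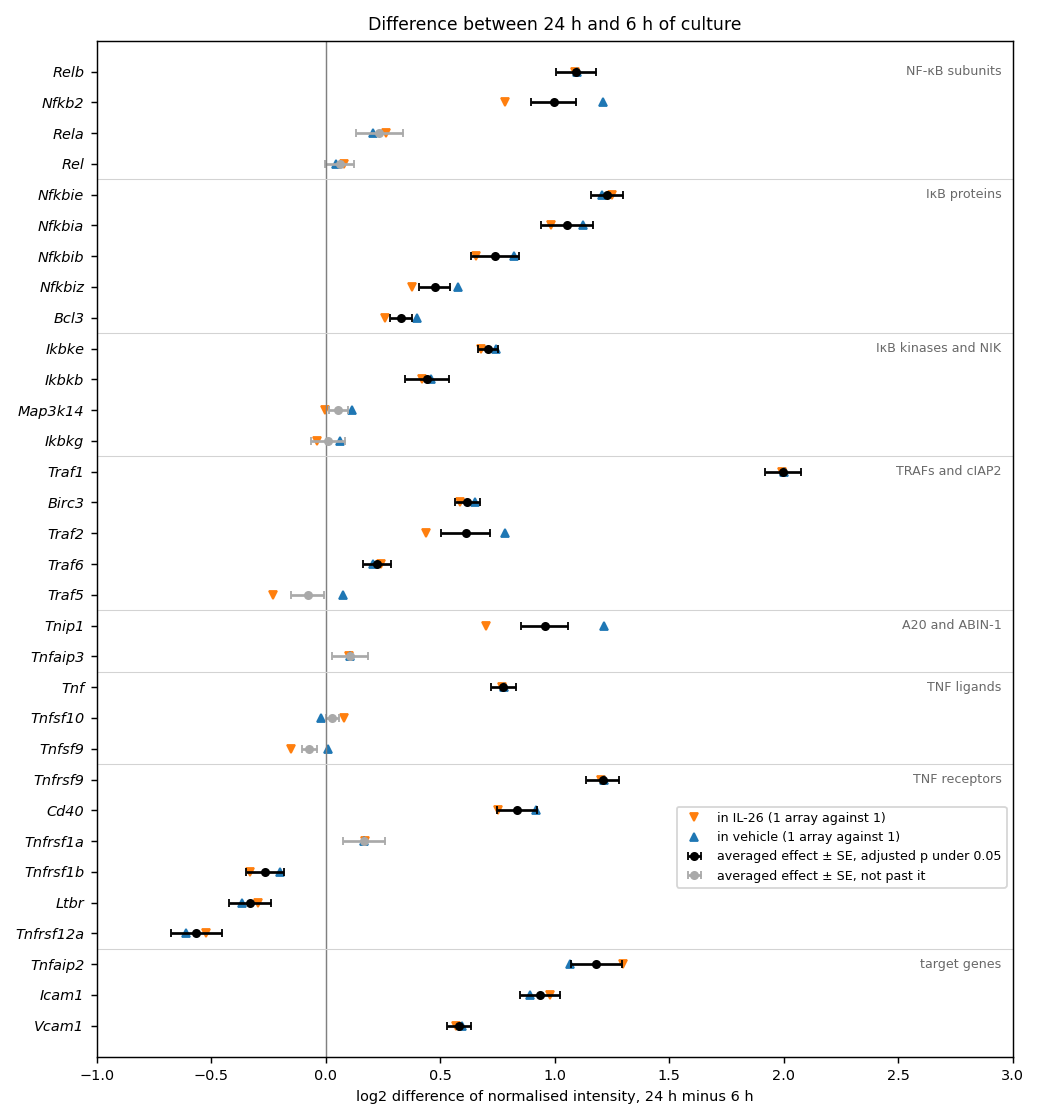
Difference between 24 h and 6 h (log2 scale) for each gene by role, with triangles for IL-26 and for vehicle (1 array against 1 in each) and circles with bars for the averaged effect ± SE. The IL-26 and vehicle triangles of Traf1, Relb, Tnfrsf9 and Tnf nearly coincide, while those of Tnip1, Nfkb2, Traf2 and Traf5 lie apart, with IL-26 to the left.

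The ligands and receptors of the TNF superfamily were divided. Tnf, the founding ligand, had 113 with IL-26 and 121 with vehicle at 24 h, against 67.3 with IL-26 and 68.9 with vehicle at 6 h, and rose by 0.77 ± 0.06 (adjusted p = 5.53e-19). The ligand genes Tnfsf9 (4-1BBL) and Tnfsf10 (TRAIL) stayed within 53.0 to 62.3, close to the limit, and did not pass. Tnfrsf9, which encodes 4-1BB, a costimulatory receptor of lymphocytes, had 182 with IL-26 and 199 with vehicle at 24 h, against 81.2 with IL-26 and 85.3 with vehicle at 6 h. It rose by 1.21 ± 0.07 (adjusted p = 4.94e-23), with no overlap between the times. Cd40, the receptor of CD40 ligand, had 274 with IL-26 and 331 with vehicle at 24 h, against 163 with IL-26 and 177 with vehicle at 6 h, a difference of 0.83 ± 0.09 (adjusted p = 5.35e-12).

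The 3 genes that fell were all receptors. Tnfrsf12a encodes Fn14, the receptor of TWEAK, and had intensities of 930 with IL-26 and 926 with vehicle at 24 h, against 1400 with IL-26 and 1494 with vehicle at 6 h. It fell by 0.57 ± 0.11 (adjusted p = 4.12e-05), and both 24 h arrays lay below both 6 h arrays. The local background beside Tnfrsf12a was bright, at 606 with IL-26 and 942 with vehicle at 6 h. With that background subtracted, its difference with time was 0.11 with IL-26 and -0.49 with vehicle. Ltbr, the lymphotoxin β receptor, fell by 0.33 (adjusted p = 0.00318), but its difference was 0.13 with the local background subtracted, and on the vehicle array at 6 h that background (325) exceeded the spot (302). Tnfrsf1b, the TNF receptor TNFR2, fell by 0.27 (adjusted p = 0.00881). Tnfrsf1a, the TNF receptor TNFR1 that most cells carry, differed by 0.17 (adjusted p = 0.187).

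The genes listed here as targets all rose. Of the other known targets named above, Nfkbia, Birc3 and Traf1 rose as well, while Tnfaip3 did not pass. Tnfaip2, a gene first found as induced by TNF, had 1374 with IL-26 and 1448 with vehicle at 24 h, against 574 with IL-26 and 725 with vehicle at 6 h, a difference of 1.18 ± 0.11 (adjusted p = 8.91e-14). Icam1, an adhesion molecule that leukocytes bind, had 313 with IL-26 and 333 with vehicle at 24 h, against 161 with IL-26 and 182 with vehicle at 6 h. It rose by 0.93 ± 0.09 (adjusted p = 1.08e-13). Vcam1, another adhesion molecule, had 97.6 with IL-26 and 108 with vehicle at 24 h, against 67.3 with IL-26 and 69.4 with vehicle at 6 h, and rose by 0.58 ± 0.05 (adjusted p = 8.03e-15). Both times were separate for Tnfaip2, Icam1 and Vcam1. Here and above, a lack of overlap between the times is a description, since the genes were named for their averaged difference on these same arrays. How many of all genes had no overlap was not counted.

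By role, at 24 h 2 of 4 subunits, 5 of 5 IκB proteins, 2 of 4 kinases and 4 of 5 genes of the TRAF group were higher. So were 1 of 2 feedback inhibitors, 1 of 3 ligands, 2 of 6 receptors and 3 of 3 genes listed as targets. To set these beside the rest of the pathway, 70 further genes were listed, of which 66 were detected on at least 1 array. Of these 66, 18 were higher and 1 was lower, with a median difference of 0.04. The further adaptors, kinases and ubiquitin enzymes accounted for 15 of the 18, out of 31, and the remaining ligands (1 of 13) and receptors (2 of 22) for few. All 13 of those ligands and 20 of the 22 receptors were under 2 times the limit on every array, in the range where the offset draws differences towards 0.

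Among the further signalling genes the largest differences were those of Traf7 (0.74 ± 0.11), a more distant TRAF, Tax1bp1 (0.65 ± 0.11), an adaptor of A20, and Bcl10 (0.58 ± 0.11), which links antigen and other receptors to the IκB kinases. Tbk1, a kinase related to IKKε, rose by 0.47 ± 0.11 and Tank, the TRAF-binding protein that carries it, by 0.46 ± 0.10. Rnf31 (0.43 ± 0.07) and Rbck1 (0.39 ± 0.08), subunits of the linear ubiquitin ligase, rose, and Otulin, the enzyme that removes linear ubiquitin chains, fell by 0.32. Nfkbil1, an IκB-like gene, rose by 0.38 and Myd88, the adaptor of Toll-like and IL-1 receptors, by 0.36. Among the 19 genes of the wider list that passed, 5 took the other sign when local background was subtracted, including Tax1bp1 (-0.29) and Myd88 (-0.08), and Nfkbil1 differed by 0.07.

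**Figure D3:**
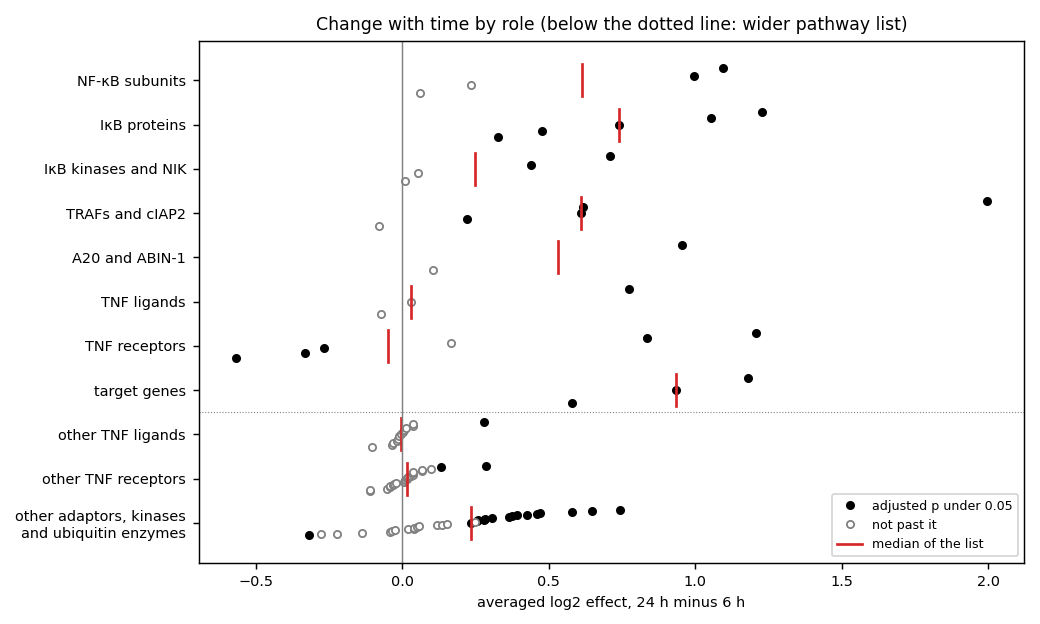
Averaged difference between 24 h and 6 h (log2 scale) of each gene, grouped by role, with filled circles past an adjusted p of 0.05, open circles not past it, and a red line at each group's median. The 32 genes stand above the dotted line, with medians up to 0.93 in the target genes, and the wider list stands below it, where most ligands and receptors lie near 0.

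The 1 residual degree of freedom is how far the difference with time departs between the treatments, and the errors come mostly from other genes of like signal. The p-values measure no spread between repeats of a group, since each group had 1 array. With the local background subtracted in place of the blank spots, 0 of 18372 genes passed for time in limma (1057 at an unadjusted p under 0.05, 14 of the 32 genes among them). The averaged differences kept their sign in 29 of the 32 genes, Rel, Ikbkg and Ltbr being the exceptions. In some of the 29 the treatments then differed in sign, among them Nfkbia, Traf2 (-0.25 with IL-26 and 0.60 with vehicle) and Ikbkb (0.77 with IL-26 and -0.59 with vehicle). The summed intensity of the leukocyte markers above the blank spots was 451 with IL-26 and 412 with vehicle at 24 h, against 537 with IL-26 and 585 with vehicle at 6 h. Most of this sum came from Cd68, and its part in the differences was not tested. In bulk RNA, fewer cells of a kind and less RNA in each cell cannot be told apart.

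The comparison of IL-26 with vehicle asks whether the cytokine changed the pathway at either time. The differences lay between -0.48 and 0.11 at 24 h and between -0.20 and 0.18 at 6 h. No gene of the 32 reached 1.5-fold in either direction at 24 h, where 0.0109% of all genes were at least that much higher and 0.0381% lower, or at 6 h, where 0.0544% were higher and 0.0272% lower. With the local background subtracted, 4 genes were at least 1.5-fold lower at 24 h, and 2 were higher and 4 lower at 6 h, with medians of -0.24 at 24 h and -0.27 at 6 h beside medians with time of 0.33 with IL-26 and 0.38 with vehicle. The share of all genes at 1.5-fold was not taken in that setting, where 62.8% of all genes were lower at 24 h and 67.2% at 6 h. Medians over all genes were there -0.04 at 24 h and -0.08 at 6 h. Averaged over both times, 0 of the 32 genes passed in limma in either direction, against 0.169% of all genes higher and 0.321% lower. At an unadjusted p under 0.05 there were 3 of the 32, against 4.77% of all genes. These were Bcl3, lower by 0.13 (adjusted p = 0.528), Tnfsf10, lower by 0.06 (adjusted p = 0.883), and Tnip1, lower by 0.22 (adjusted p = 0.924). Of the wider list, 0 of 66 passed and 1 had an unadjusted p under 0.05.

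At 24 h the small differences of the 32 genes ran mostly downwards. The value with IL-26 was lower than with vehicle in 24 of the 32 genes and higher in 8, where 53.9% of all genes were higher. The median difference was -0.03 for the 32 genes and 0.01 for all genes. The wider list leaned the other way, with 41 of 66 genes (62.1%) higher with IL-26 at 24 h and a median difference of 0.02. A count of genes at least 1.2-fold lower, a size chosen after the values were seen, took in Tnip1, Nfkb2, Traf2 and Traf5, 4 of the 32 against 2.01% of all genes, and no gene was as much higher (0.827% of all genes). In the wider list, 0 of 66 genes were at least 1.2-fold lower. The largest difference of the 32 genes was that of Tnip1, with 391 with IL-26 and 583 with vehicle at 24 h, a difference of -0.48 or 1.4-fold lower. Nfkb2, with 341 with IL-26 and 464 with vehicle, differed by -0.35, and Traf2, with 597 with IL-26 and 785 with vehicle, by -0.32. For Traf5, an adaptor of the lymphotoxin and CD40 receptors, the array with IL-26 had 103 and that with vehicle 133, a difference of -0.27.

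At 6 h the same 4 genes differed by 0.03 for Tnip1, 0.08 for Nfkb2, 0.03 for Traf2 and 0.04 for Traf5. With the arrays scaled to their medians, Tnip1 and Traf2 were slightly below 0 at 6 h (-0.03 and -0.04). Whether the IL-26 difference changed between the times was not tested. The local background beside Tnip1 was 75.1 with IL-26 and 221 with vehicle at 24 h, and beside Nfkb2 95 with IL-26 and 182 with vehicle, higher on the vehicle array, as the spots were. Beside Traf2 it was 363 with IL-26 and 366 with vehicle, and beside Traf5 61.6 with IL-26 and 64.5 with vehicle. With the local background subtracted, the differences at 24 h were -0.60 for Tnip1, -0.56 for Nfkb2, -1.13 for Traf2 and -0.53 for Traf5, where 62.8% of all genes were lower. At 6 h they were -0.74 for Tnip1, -0.54 for Nfkb2, -0.28 for Traf2 and -0.27 for Traf5, where 67.2% of all genes were lower, so that all 4 were lower with IL-26 at both times in that setting.

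**Figure D4:**
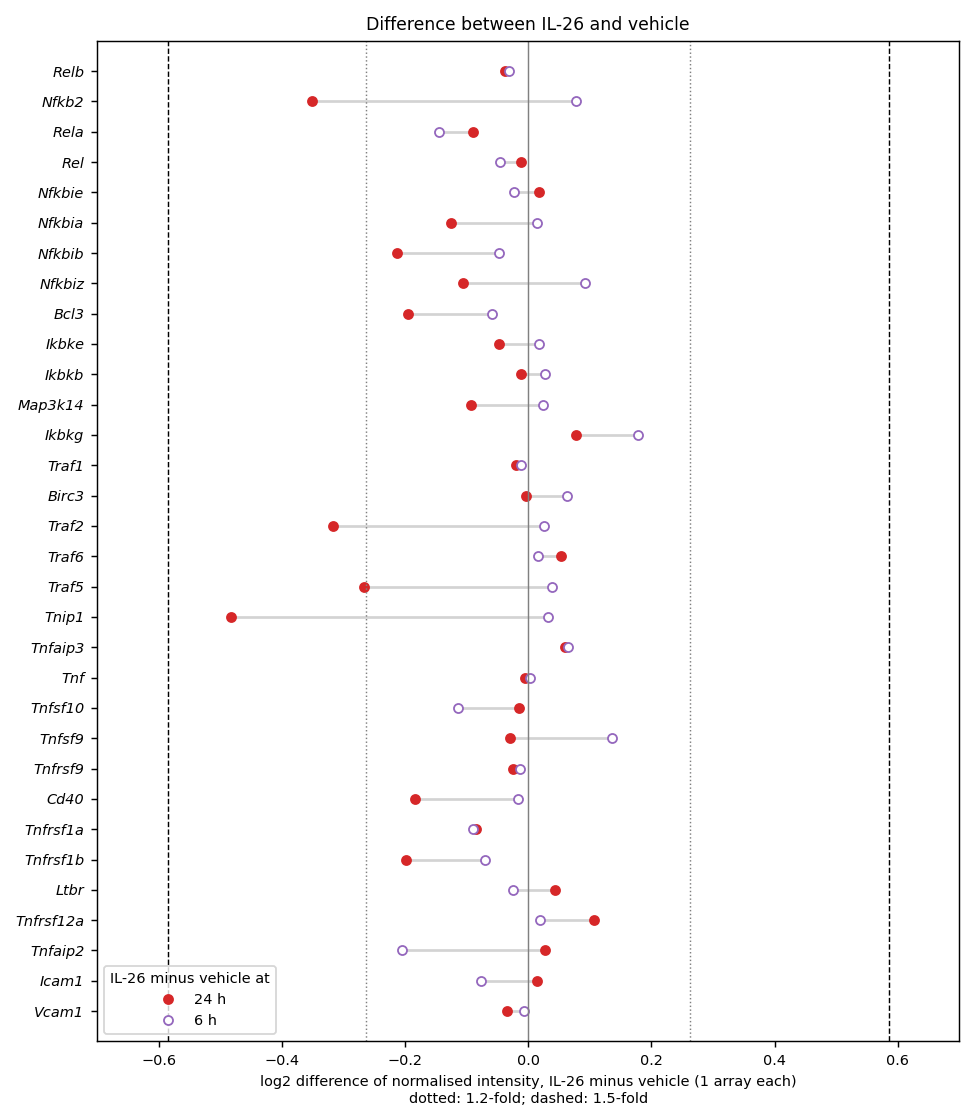
Difference between IL-26 and vehicle (log2 scale, 1 array against 1) for each of the 32 genes, with filled circles for 24 h, open circles for 6 h, dotted lines at 1.2-fold and dashed lines at 1.5-fold. No circle reaches a dashed line, and the filled circles of Tnip1, Nfkb2, Traf2 and Traf5 lie beyond the left dotted line while their open circles lie near 0.

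At 6 h the genes were evenly divided, with 16 higher and 16 lower with IL-26, where 49.4% of all genes were higher, and none reached 1.2-fold in either direction (1.24% of all genes were that much higher and 0.806% lower). The largest difference was that of Tnfaip2, with 574 with IL-26 and 725 with vehicle at 6 h (-0.20). Ikbkg had 145 with IL-26 and 137 with vehicle at 6 h (0.18), and 142 with IL-26 and 144 with vehicle at 24 h, where the normalised difference was 0.08, of the other sign than the spot intensities. Rela had 390 with IL-26 and 473 with vehicle at 6 h (-0.15), and 463 with IL-26 and 527 with vehicle at 24 h (-0.09). A total of 12 genes were lower with IL-26 at both times and 4 were higher at both. These counts take differences of any size, and the like shares over all genes were not taken. The number lower with IL-26 at 6 h was 20 with the arrays scaled to their medians, where 45.8% of all genes were lower. It was 28 with the local background subtracted, where 67.2% of all genes were lower.

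The 4 comparisons share arrays, so a low value with IL-26 at 24 h also shortens the difference with time in that treatment. Of the 20 genes that rose with time, 16 had a smaller difference with IL-26 than with vehicle. The like share over all genes was not taken, and the 20 were picked on the average of these same differences. The gap was widest in Tnip1, at 0.70 with IL-26 and 1.21 with vehicle, and Nfkb2, at 0.78 with IL-26 and 1.21 with vehicle. Tnfaip2 went the other way, at 1.30 with IL-26 and 1.06 with vehicle, as did Icam1, at 0.98 with IL-26 and 0.89 with vehicle. The median over all 32 genes was 0.43 with IL-26 and 0.58 with vehicle, where that over all genes was -0.00 with IL-26 and -0.01 with vehicle.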

How the data were processed

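Total RNA of E0771 cells was amplified, labelled with Cy5 and hybridised to a TORAY 3D-Gene mouse oligo chip, with 1 array for each combination of treatment and time. The deposited file of an array gives, for every spot, a median intensity and a local background intensity, with nothing subtracted or normalised per the file headers. A further deposited table holds intensities that the authors had made from the same arrays. On inspection these were the spot intensity less a constant close to the blank mean, then scaled so that the median of an array was 25.0, and 6.49% to 7.88% of probes were left empty. The labels and methods do not state that step, and these values served as an alternative.

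Of 23473 probes, 20690 had 1 symbol, 0 had several and 2783 are unnamed here. Intensities were corrected with normexp from 384 blank spots (offset 50), brought to log2 and quantile normalised with limma 3.58.1 in R 4.3.3, and probes of a gene were averaged. Genes more than 2 SD above the blank mean on at least 1 array were tested. Groups were taken from the labelled treatment. Differences between 2 single arrays were counted at 1.5-fold, with no p-value. The limma fit, additive in treatment and time (trended eBayes, Benjamini-Hochberg over 18372 genes), had 1 residual degree of freedom and a prior worth 63.8. It was tested on simulated data. Alternatives changed the offset, background, scaling, filter, probe choice, variance trend and fold, or left out spots beside bright ones.

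The genes and lists were chosen with earlier results of these data known. Values on every array are given for genes past the adjusted p threshold with an averaged time effect of at least 0.5 and for the 3 with the largest IL-26 difference at each time. Of the wider list, the 10 past the threshold with the largest time effect are named. The values of Traf5 were added after they were seen.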

Additional observations from a re-analysis of the deposited data

How the results depend on the processing

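The counts and medians were recomputed under 10 or fewer alternatives each. Detection on all 4 arrays, a stricter limit of detection, no filter, the brightest probe, and leaving out spots beside bright ones kept each count of these 32 genes within 1.5 times its value. With local background, 0 genes of the pathway were higher and 0 lower with time, against 20 and 3 with the blank spots, and the averaged difference of Ltbr was 0.13 (limma adjusted p = 0.918) against -0.33. The IL-26 comparison then had 4 genes at least 1.5-fold lower at 24 h, and 2 higher and 4 lower at 6 h, with medians of -0.24 at 24 h and -0.27 at 6 h. Over all genes, 62.8% were then lower by any amount with IL-26 at 24 h and 67.2% at 6 h, and the share at 1.5-fold was not taken. Median differences with time were 0.33 in IL-26 and 0.38 in vehicle with local background, 0.52 in IL-26 and 0.83 in vehicle with an offset of 16, and 0.82 in IL-26 and 1.0 in vehicle in the authors' values. In the authors' values 1 gene, Tnfsf9, was at least 1.5-fold lower with time in IL-26 (-1.32). With IL-26 at 6 h 1 gene was that much higher, Tnfsf9 (0.84), and 1 lower, Tnfsf10 (-1.52). Both genes had spots of 53.0 to 62.3, close to the limit, and the like shares of all genes were not taken. At 2-fold, 5 genes were higher with time in IL-26, and 8 were higher and 0 lower in vehicle. The count at least 1.2-fold lower with IL-26 at 24 h, whose alternatives were added after the values were seen, was 12 with local background, against 16.9% of all genes, and 8 in the authors' values, against 13.5%. The number lower with IL-26 by any amount was 22 to 27 of 32 at 24 h and 16 to 28 of 32 at 6 h. Over all genes the share lower was 44.5% to 62.8% at 24 h and 45.8% to 67.2% at 6 h. Rela passed for time with median scaling, without a variance trend and in the authors' values, and Tnfsf9 in the authors' values (-0.74) and among genes detected on all 4 arrays. The cause of these shifts was not tested.

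Over all genes, those past the threshold for time numbered 1760 higher and 1689 lower without the variance trend. For IL-26 there were 31 higher and 59 lower, against 109 and 83 with median scaling, 255 and 10 with local background, 15 and 68 in the authors' values, 10 and 22 with an offset of 16, 2 and 2 with no filter, and 0 without the trend (709 at an unadjusted p under 0.05). None of the 32 genes passed for IL-26 under any alternative, with 1 to 5 of them at an unadjusted p under 0.05. Leaving out 1 array leaves no residual degree of freedom, so no such fit was run, and the values within each treatment stand in its place. No paired analysis was possible because the labels give no replicate numbers and each group has 1 array. Signal over background limits the dim genes, since the local background was 49.2% to 60.2% of the spot intensity in the median gene of the 32.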
